A study of Mus musculus with 8 samples.

Results

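The 10 genes described here encode ubiquitin ligases that have been linked to muscle wasting: 3 muscle RING finger proteins (Trim63, Trim55 and Trim54), 5 F-box proteins (Fbxo32, Fbxo40, Fbxo30, Fbxo31 and Fbxo21), and Nedd4 and Cblb. They were chosen with earlier results of these data known, and each gene name matched exactly 1 of the 48709 genes in the deposited table of read counts. RNA sequencing had been done on whole gastrocnemius muscle, a calf muscle of mainly fast fibres, from C57BL/6 mice aged 16 weeks. The GRKO group (genotype GR(i)skm-/-, 4 libraries) came from a cross of mice with a floxed glucocorticoid receptor gene to HSA-Cre-ERT2 mice, in which a skeletal actin promoter drives an inducible Cre recombinase in muscle fibres. The control group (4 libraries) carried the floxed receptor gene, and the labels do not say whether it also carried Cre or received the inducing drug. The comparison asks how the loss of the receptor in muscle fibres changes muscle transcripts.

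Ubiquitin ligases choose which proteins are tagged with ubiquitin for destruction by the proteasome. Trim63 (MuRF1) and Fbxo32 (atrogin-1, also called MAFbx) are the best known of them in muscle: their transcripts rise in many forms of atrophy, including that caused by glucocorticoids, and FoxO transcription factors and the glucocorticoid receptor are both known to act on the Trim63 promoter. MuRF proteins are RING ligases bound to the sarcomere, whereas an F-box protein is the substrate-binding part of an SCF complex, in which Skp1, Cul1 and Rbx1 form the shared core.

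The promoter of Trim63 is shown because the study removed a receptor with a known binding site there, and that of its relative Trim54 for comparison. Both sequences are from RefSeq on build GRCm38.p6, run 5′ to 3′ along the plus strand and hold the 250 bases before the gene start that RefSeq annotates, at chr4:134314870-134315119 for Trim63 and chr5:31116362-31116611 for Trim54. RefSeq starts can differ from those of GENCODE, which gave the gene coordinates below. The window meets the GENCODE start of Trim63, ends short of that of Trim54 and reaches into the GENCODE gene for Fbxo21. The windows of Fbxo30 and Cblb lie wholly within the GENCODE gene, as does 1 window each of Fbxo40 and Nedd4. Capitals mark matches to the palindromic core of a glucocorticoid response element (GAACA, 3 bases of any kind, then TGTTC), to its half-site (AGAACA, or TGTTCT on the other strand) and to a FoxO site (TGTTTAC or GTAAACA).
Trim63: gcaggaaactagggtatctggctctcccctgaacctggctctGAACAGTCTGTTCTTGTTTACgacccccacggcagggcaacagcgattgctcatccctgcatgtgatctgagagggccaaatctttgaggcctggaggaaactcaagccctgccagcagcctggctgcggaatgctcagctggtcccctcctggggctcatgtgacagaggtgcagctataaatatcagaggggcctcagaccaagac
Trim54: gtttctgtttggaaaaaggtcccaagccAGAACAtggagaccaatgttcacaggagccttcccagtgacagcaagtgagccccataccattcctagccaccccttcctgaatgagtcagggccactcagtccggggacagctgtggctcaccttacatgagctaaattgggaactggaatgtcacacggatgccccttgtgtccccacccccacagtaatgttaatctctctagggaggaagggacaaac
In the Trim63 window the palindrome lay 208 to 196 bases before the start and the FoxO site 194 to 188 bases before it, with 1 base between them. A half-site match, 200 to 195 bases before the start, overlapped the palindrome and took up that base. The search covered both strands of 32851 RefSeq windows of the same length. The palindrome occurred in 0.0396% of them (13 windows), the FoxO site in 3.17% and the half-site in 16.1%, and the Trim63 window was the 1 window that held both the palindrome and the FoxO site. RefSeq sequences were matched for 8 of the 10 genes, with 10 windows in all, and Fbxo32 and Trim55 were not matched. In the Trim54 window 1 half-site was found, as in 1 of the windows each of Fbxo40 and Nedd4. Those windows of Fbxo40 and Nedd4 are the ones that lie within the GENCODE gene. A match is a run of letters and does not show that a factor bound there in these muscles.

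**Figure D1:**
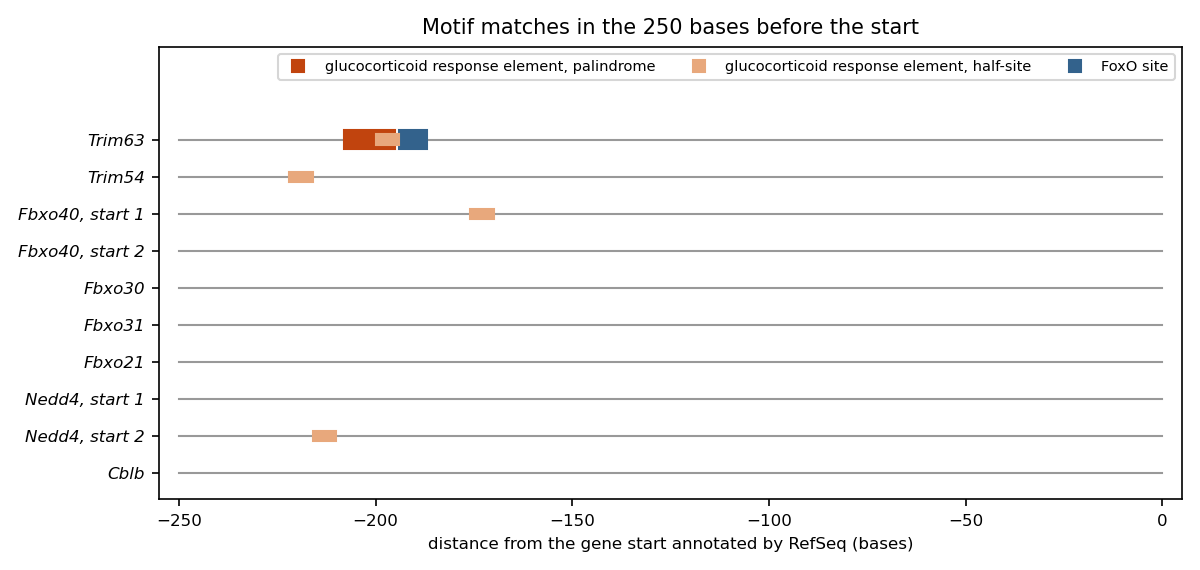
Matches to 3 motifs in the 250 bases before each gene start annotated by RefSeq (x axis, distance from that start in bases), 1 line per RefSeq window of the 8 matched genes. The palindrome and the FoxO site stand side by side in Trim63, 208 to 188 bases before its start, and in none of the other 9 windows.

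Each library has a letter, E, F, G or H for those labelled GRKO and A, B, C or D for control. The GRKO libraries held 37944368 to 52200305 counts and the control libraries 36680510 to 44987629. Levels are given as TMM-scaled CPM, that is, reads of a gene as a share of its library's total after edgeR's trimmed mean of M-values had adjusted the totals. The targeted gene did not follow its label in 2 of the 4 GRKO libraries: Nr3c1, which encodes the receptor, was at 87.1 (E), 38.6 (F), 96.7 (G) and 42.8 CPM (H) in GRKO libraries, against 83.2 to 90.0 CPM in control libraries. Reads from any exon of Nr3c1 were counted, and which exon was floxed is not stated. Fkbp5, a gene induced by the receptor, was at 32.2 (E), 6.68 (F), 31.4 (G) and 10.7 CPM (H) in GRKO libraries, against 36.0 to 57.7 CPM in control libraries. GRKO hereafter means the libraries labelled so, and the plot of fold changes gives every member without E and G. All 10 myofibre markers were detected, summing to 141960 to 159720 CPM in GRKO libraries and 152950 to 191740 CPM in control libraries, and 2 of them fell. Fell and rose here mean an edgeR adjusted p under 0.05, which 8.45% of all genes tested reached. All 6 Schwann cell markers fell, with sums of 63.8 to 86.6 CPM in GRKO and 173 to 314 CPM in control libraries, and so did 4 of 6 smooth muscle and pericyte markers (452 to 520 and 521 to 630 CPM), while 3 of 4 mast cell markers rose (10.3 to 14.8 and 4.36 to 9.93 CPM). Sums were also lower without overlap for endothelial markers (349 to 377 CPM in GRKO and 383 to 423 CPM in control, 2 of 7 fell), tenocyte markers (115 to 140 and 149 to 264 CPM, 1 of 4 fell) and satellite cell markers (32.1 to 39.5 and 41.4 to 47.2 CPM, 0 of 6 called). The median log2 fold change of the satellite cell markers was 0.07 (GRKO over control), so their lower sum did not hold for every marker. Sums overlapped between the groups for fibro-adipogenic markers (of 6, 1 rose and 1 fell) and macrophage markers (1 of 6 rose). They also overlapped for adipocyte, erythroid, and T and B cell markers, with none called. No marker was at 0 in all libraries. The part of these differences in the values below was not tested, and in whole muscle fewer cells of a type and less RNA per cell cannot be told apart.

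None of the 10 ligase genes passed the test between GRKO and control (edgeR quasi-likelihood, Benjamini-Hochberg adjusted p under 0.05), where 8.45% of the 14712 genes tested did. At an unadjusted p under 0.05 there were 2, Fbxo32 and Fbxo30, both higher in GRKO, against 27.1% of all genes. In no member did the GRKO and control libraries separate without overlap, which 16.7% of all genes did. The log2 fold change (GRKO over control) was positive for 7 members and negative for 3, with a median of 0.07 against -0.01 over all genes. All 10 passed the filter on low counts, and no member had under 387 reads in any library. DESeq2's Wald test called 2, Fbxo32 and Fbxo30, where it called 13.8% of all genes.

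Among the MuRF genes, Trim63 (ENSMUSG00000028834, chr4:134315120-134329629, plus strand, build GRCm38, as for all coordinates), whose protein binds titin and tags thick-filament proteins, was at 318 (E), 303 (F), 304 (G) and 208 CPM (H) in GRKO libraries. In control libraries Trim63 was at 364 (A), 288 (B), 355 (C) and 282 CPM (D). Libraries E, F and G lay inside the control range and H below it. The means were 283 ± 50.5 CPM in GRKO and 322 ± 43.6 CPM in control (SD, n = 4 each). The log2 fold change, -0.19 ± 0.14 (SE), was not called by edgeR (adjusted p = 0.415). The 95% interval of the fold, taken gene by gene, ran from 0.711 to 1.09. In F and H, the libraries with low Nr3c1, there were 14311 and 11190 Trim63 reads before scaling, or 303 and 208 CPM. Without E and G the Trim63 log2 fold change was -0.33 (edgeR adjusted p = 0.319).

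Trim54 (MuRF3; ENSMUSG00000062077, chr5:31116712-31137630, plus strand), known for stabilising microtubules in muscle cells, was at 410 (E), 378 (F), 349 (G) and 298 CPM (H) in GRKO libraries, against 469 (A), 308 (B), 511 (C) and 426 CPM (D) in control libraries. Control library B was low for its group and inside the GRKO range, while A, C and D lay above every GRKO library. The log2 fold change was -0.26 ± 0.15 (SE; edgeR adjusted p = 0.3, 95% interval of the fold 0.663 to 1.06). Without B it became -0.38 and was called (adjusted p = 0.0485), in a fit that called 12.1% of all genes. Trim55 (MuRF2; ENSMUSG00000060913, chr3:19644474-19692421, plus strand), the third member of the family, was at 80.8, 90.3, 78.9 and 84.4 CPM in GRKO libraries E to H and at 80.2, 86.1, 82.3 and 73.3 CPM in control libraries A to D. Its groups overlapped over most of their range (log2 fold change 0.06 ± 0.07, 95% interval of the fold 0.934 to 1.16). Per length of exon, Trim54 made up 64.0% to 66.7% of the 3 MuRF transcripts in GRKO libraries and 61.6% to 70.1% in control libraries. Trim63 made up 23.5% to 28.2% in GRKO and 23.4% to 29.1% in control libraries, so the balance within the family overlapped between the groups.

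Among the F-box genes the widest difference in size was that of Fbxo32 (ENSMUSG00000022358, chr15:58175879-58214932, minus strand), whose product directs the breakdown of MyoD and eIF3f. Fbxo32 was at 744 (E), 753 (F), 738 (G) and 419 CPM (H) in GRKO libraries. In control libraries it was at 582 (A), 320 (B), 467 (C) and 450 CPM (D). Libraries E, F and G lay above every control library and close together, and library H lay inside the control range. Nr3c1 reads were low in F and H and at the control level in E and G. Whether Fbxo32 followed the loss of the receptor was not tested. The means were 664 ± 163 CPM in GRKO and 455 ± 107 CPM in control (SD, n = 4 each), a 1.46-fold higher level (log2 fold change 0.55 ± 0.23 SE, 95% interval of the fold 1.01 to 2.10). By edgeR it was not called (adjusted p = 0.17). It was called by DESeq2 (log2 fold change 0.56, adjusted p = 0.0357) and by edgeR without library H (0.71, adjusted p = 0.0462, in a fit that called 4.69% of all genes). Without E and G, Fbxo32 had a log2 fold change of 0.37 (edgeR adjusted p = 0.536).

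**Figure D2:**
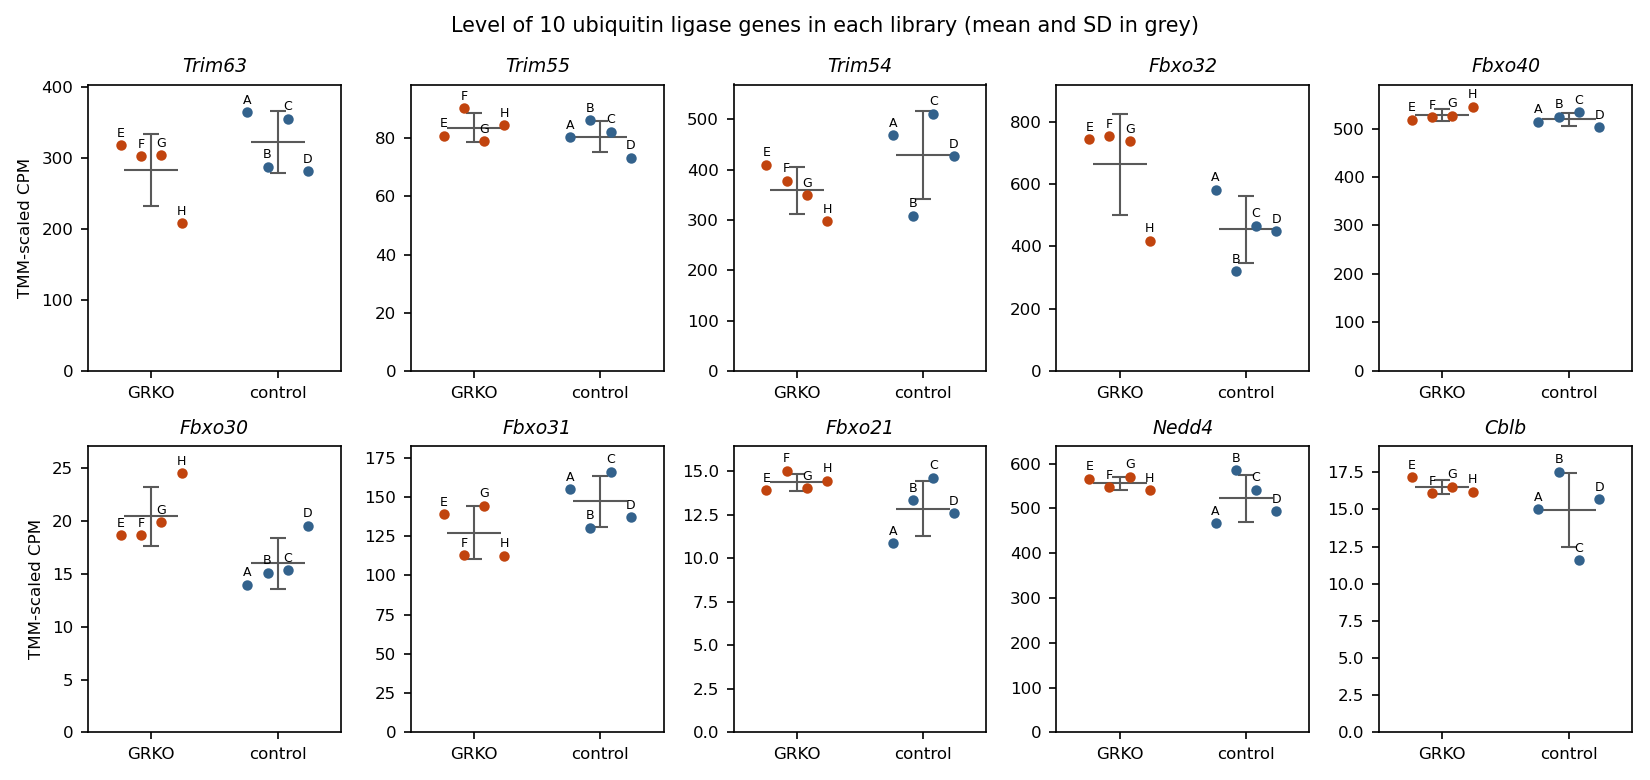
TMM-scaled CPM (y axes from 0, a scale for each gene) of the 10 ligase genes in GRKO libraries E to H (left) and control libraries A to D (right), with the mean and SD of each group in grey. The groups overlap in every panel, and library H stands below the other GRKO libraries for Trim63 (208 CPM) and Fbxo32 (419 CPM).

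Fbxo32 and Trim63 are often measured together as a pair of atrophy markers, and their ratio is shown because it set the groups apart. The ratio of Fbxo32 to Trim63 reads, which does not depend on how libraries are scaled, was 2.34 (E), 2.49 (F), 2.43 (G) and 2.01 (H) in GRKO libraries. It was 1.60 (A), 1.11 (B), 1.31 (C) and 1.60 (D) in control libraries. All 4 GRKO libraries thus lay above all 4 control libraries, H included, since H was low for both genes. Of the 45 ratios between members, 2 separated the groups without overlap, and the other was Trim54 to Fbxo32 (0.472 to 0.712 in GRKO and 0.806 to 1.09 in control libraries). How often ratios of other gene pairs separated the groups was not counted, while 16.7% of single genes did so. The 2 ratios were chosen after the values were seen and are given without a test. These ratios do not cancel a difference in GC content, which was 45.8% in the longest Fbxo32 transcript, 52.4% in that of Trim63 and 59.9% in that of Trim54. After a correction for the GC trend of each library, the log2 fold changes were 0.48 for Fbxo32, -0.10 for Trim63 and -0.09 for Trim54.

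**Figure D3:**
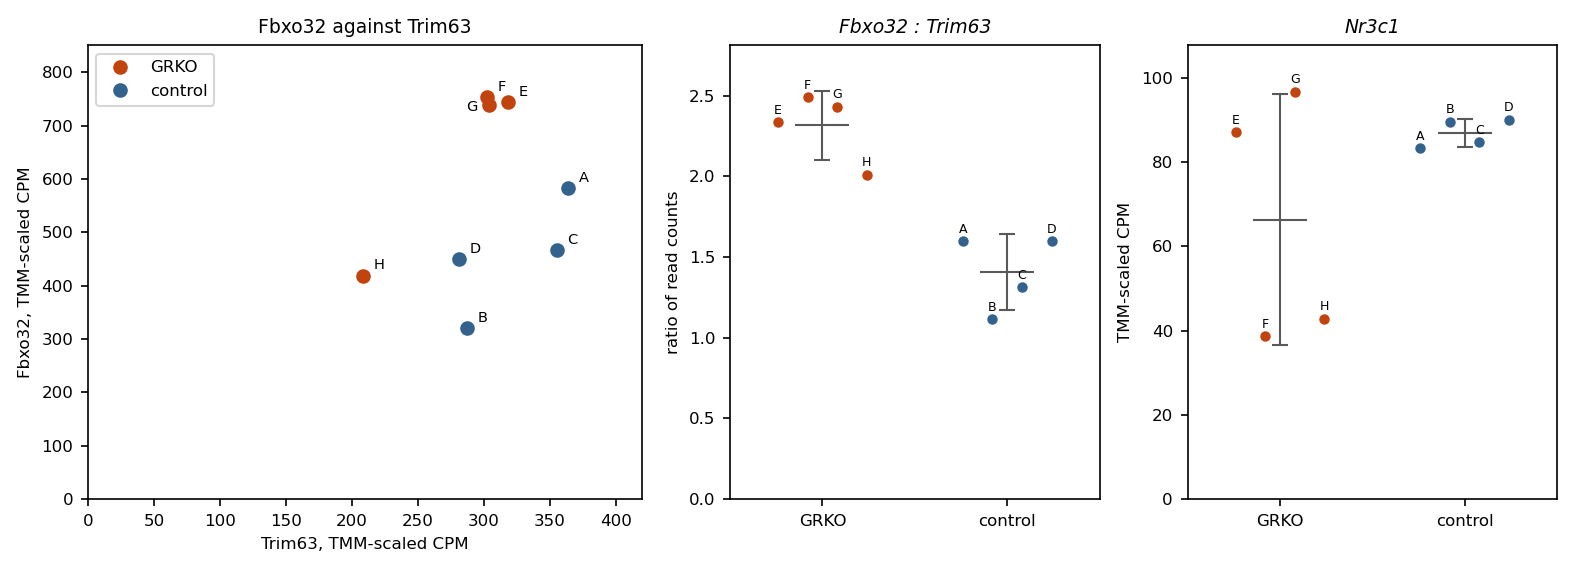
Left, Fbxo32 against Trim63 in TMM-scaled CPM for each library; middle, the ratio of their read counts, 2.01 to 2.49 in GRKO and 1.11 to 1.60 in control libraries; right, Nr3c1 in TMM-scaled CPM. Letters name libraries, and grey bars in the middle and right panels are the mean and SD of 4 libraries.

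Fbxo30 (MUSA1; ENSMUSG00000047648, chr10:11281330-11298052, plus strand), a ligase held down by BMP signalling in muscle, was at 18.7 (E), 18.6 (F), 19.9 (G) and 24.6 CPM (H) in GRKO libraries and at 14.0 (A), 15.1 (B), 15.4 (C) and 19.6 CPM (D) in control libraries. Control library D alone reached into the GRKO range. The log2 fold change was 0.35 ± 0.12 (SE), with the smallest adjusted p of the 10 members (edgeR adjusted p = 0.0921), and the 95% interval of the fold was 1.06 to 1.53. It was called without control library D (0.46, adjusted p = 0.0385, in a fit that called 5.98% of all genes) and by DESeq2 (0.36, adjusted p = 0.0485). The longest Fbxo30 transcript had the lowest GC content of the members, 38.2%, and with the GC trend removed the log2 fold change was 0.10 (edgeR adjusted p = 0.599).

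Fbxo31 (ENSMUSG00000052934, chr8:121549440-121578806, minus strand), which directs the breakdown of cyclin D1 in human cells, was at 139 (E), 113 (F), 144 (G) and 113 CPM (H) in GRKO libraries, against 155 (A), 130 (B), 166 (C) and 137 CPM (D) in control libraries. The libraries with low Nr3c1, F and H, lay below every control library, while E and G lay within the control range. The log2 fold change was -0.21 ± 0.11 (SE; edgeR adjusted p = 0.224), -0.38 without E and G (adjusted p = 0.114) and -0.06 with the GC trend removed, the GC content of the longest Fbxo31 transcript being 58.9%. Fbxo21 (SMART; ENSMUSG00000032898, chr5:117976730-118010201, plus strand), a FoxO-dependent ligase of atrophying muscle, was at 13.9, 15.0, 14.0 and 14.4 CPM in GRKO libraries E to H and at 10.9, 13.3, 14.6 and 12.6 CPM in control libraries A to D. The GRKO values lay close together, with F above every control library and E, G and H at the upper end of the control range (log2 fold change 0.16 ± 0.09, SE; edgeR adjusted p = 0.284; 0.25 with the GC trend removed).

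Fbxo40 (ENSMUSG00000047746, chr16:36963460-36990467, minus strand), a largely muscle-restricted protein that directs the breakdown of the insulin receptor substrate IRS1, was the steadiest member. It was at 518, 523, 526 and 545 CPM in GRKO libraries E to H and at 514, 525, 534 and 503 CPM in control libraries A to D. The 95% interval of its fold, 0.933 to 1.11, was the tightest of the F-box genes (edgeR adjusted p = 0.811). Fbxo32 made up 46.0%, 47.0%, 45.2% and 32.2% of the 5 F-box transcripts per length of exon in GRKO libraries E to H. In control libraries A to D Fbxo32 made up 39.8%, 27.0%, 33.5% and 34.5%, so the groups overlapped. The share of Fbxo31 was 8.97% to 11.3% in GRKO and 13.4% to 15.2% in control libraries. It was the only share of the 5 without overlap and is given without a test. A share does not cancel a difference in GC content, which was 58.9% in the longest Fbxo31 transcript and 45.8% in that of Fbxo32. Fbxo40 was the more abundant of the pair per length in all control libraries and in H, and Fbxo32 in E, F and G.

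Nedd4 (ENSMUSG00000032216, chr9:72662346-72749852, plus strand), a HECT ligase of membrane receptors and channels, was at 566, 548, 571 and 540 CPM in GRKO libraries E to H and at 467, 586, 542 and 494 CPM in control libraries A to D. The GRKO libraries all lay inside the wider control range (log2 fold change 0.09 ± 0.08, 95% interval of the fold 0.946 to 1.20, edgeR adjusted p = 0.478). The annotation places the gene Gm7265, with 7314 reads over all libraries, on the same strand within Nedd4, and reads of the pair may be split uncertainly. Cblb (ENSMUSG00000022637, chr16:52031225-52208048, plus strand), a RING ligase that targets IRS1 in unloaded muscle, was at 17.2, 16.1, 16.5 and 16.2 CPM in GRKO libraries E to H and at 15.0, 17.5, 11.6 and 15.7 CPM in control libraries A to D. Control library C was the low one, and the other 7 lay between 15.0 and 17.5 CPM (log2 fold change 0.14 ± 0.11, 95% interval of the fold 0.932 to 1.30, edgeR adjusted p = 0.442). Without C the log2 fold change of Cblb was 0.04, and without B it was 0.23.

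**Figure D4:**
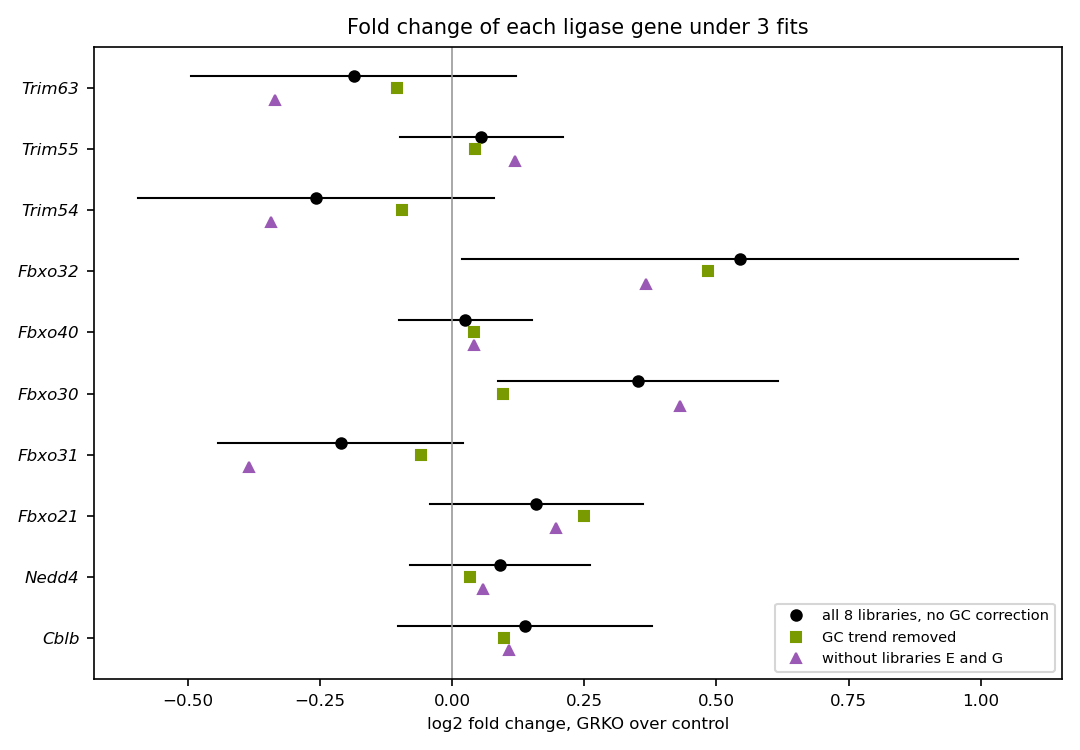
Log2 fold change (x axis, GRKO over control) of each ligase gene from all 8 libraries with its 95% interval (black), with the GC trend removed (green squares) and without libraries E and G (purple triangles). Fbxo32 lies farthest from 0 with all 8 libraries (0.55). With the GC trend removed, every member but Fbxo21 and Fbxo40 moves toward 0.

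Per kilobase of exon, the 10 transcripts spanned a wide range, in the order Trim54, Trim63, Fbxo40, Fbxo32, Nedd4, Trim55, Fbxo31, Fbxo30, Fbxo21 and Cblb by their mean over the 8 libraries. Trim54 averaged 250 ± 33.0 CPM per kilobase in GRKO and 298 ± 60.8 in control libraries (SD, n = 4 each). Cblb averaged 1.58 ± 0.0456 CPM per kilobase in GRKO and 1.43 ± 0.238 in control libraries. The ranges of neighbours over the 8 libraries overlapped from Trim63 through Fbxo40 and Fbxo32 to Nedd4, between Trim55 and Fbxo31, and between Fbxo30 and Fbxo21. Within a library, Trim55 was above Fbxo31 and Fbxo30 above Fbxo21 in 8 of 8 libraries, Trim63 above Fbxo40 and Fbxo32 above Nedd4 in 7, and Fbxo40 above Fbxo32 in 5. Trim54 stood clear above Trim63, Nedd4 above Trim55, Fbxo31 above Fbxo30, and Fbxo21 above Cblb. Exon lengths are the union of all annotated transcripts, which lowers the level per kilobase of a gene expressed from a short one.

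Members varied together in groups across the 8 libraries. The highest Pearson correlations of log2 CPM were between Trim63 and Trim54 (r = 0.80), Trim63 and Fbxo31 (0.78) and Trim54 and Fbxo31 (0.75), the 3 members that were lower in GRKO on average, and the lowest was between Trim63 and Fbxo30 (-0.83). The 8 points of each correlation share the 2 groups, the library depths and a trend on GC content, so these values are descriptions. Among genes whose log2 CPM averaged 1 or more, predicted genes skipped, those most like Fbxo32 over the 8 libraries were the imprinted non-coding Peg13 (r = 0.99), the zinc finger gene Patz1 (0.97) and the kinase gene Cdc42bpg (0.96). Those most like Trim63 were the splicing factor gene Usp39 (0.98), the AP-1 gene Junb (0.97) and the ribosomal protein gene Rps9 (0.97). None of these 6 genes passed the edgeR test between the groups (lowest adjusted p = 0.195, Peg13). Their r values are the highest of a search through all such genes, with 8 points each, and are descriptions too.

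In the SCF core and the machinery that attaches Nedd8 to cullins, 2 of 20 genes tested fell and none rose (median log2 fold change 0.02, against 4.41% lower and 4.04% higher over all genes). Nedd8, the ubiquitin-like modifier that activates cullins, fell to 36.0 ± 1.42 CPM in GRKO, against 42.0 ± 1.28 in control (log2 fold change -0.22, edgeR adjusted p = 0.0413). Cops7b, a subunit of the COP9 signalosome that removes Nedd8, fell to 10.9 ± 0.527 CPM in GRKO, against 13.4 ± 0.987 in control (-0.29, edgeR adjusted p = 0.0454). The core genes of the complex, given here as chosen after their values were seen, had Skp1a at 221 and 210 CPM, Cul1 at 111 and 101 CPM and Rbx1 at 63.2 and 58.7 CPM in GRKO and control, and none passed. Both calls ended with the GC trend removed, with no filter, with scaling by library size alone, without E and G together, and without any of F, G, H, A, C and D singly, and that of Cops7b also without E. The log2 fold change with the GC trend removed was -0.11 for Nedd8 and -0.31 for Cops7b (edgeR adjusted p = 0.256 and 0.0518), and without E and G it was -0.24 and -0.28. The fit without E and G left F and H as the only GRKO libraries and called 226 of the 15183 genes it tested, so most calls ended in it.

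Of 49 other F-box genes tested, 5 rose and none fell (median log2 fold change 0.02). The 10.2% called is near the 8.45% of all genes, and Fbxl4, Fbxl5, Fbxl17 and Fbxo11 were among those that rose. Fbxl4, a mitochondrial protein that restrains mitophagy, rose to 38.4 ± 2.88 CPM in GRKO, against 27.4 ± 3.71 in control (log2 fold change 0.49, edgeR adjusted p = 0.0158). Fbxl5, the iron-sensing ligase of iron regulatory proteins, was at 56.9 and 44.2 CPM in GRKO and control (0.37, edgeR adjusted p = 0.0165). Fbxl17, which checks the pairing of BTB-domain proteins, and Fbxo11, a ligase of Bcl6 in lymphoma cells, rose by log2 fold changes of 0.31 and 0.28 (edgeR adjusted p = 0.0206 and 0.0424). With the GC trend removed only Fbxl17 of these 4 genes kept its call (0.31), with log2 fold changes of 0.39 for Fbxl4, 0.19 for Fbxl5 and 0.12 for Fbxo11. Without E and G, a fit with only F and H in the GRKO group, Fbxl5 alone kept its call (0.47). The log2 fold change in that fit was 0.42 for Fbxl4, 0.36 for Fbxl17 and 0.34 for Fbxo11. Calls also ended without 1 library for Fbxl4 (G), Fbxl5 (F or G), Fbxl17 (G or H) and Fbxo11 (E, F, G, H, A or C).

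Of other ubiquitin ligases studied in muscle, 6 of 25 tested were called, or 24.0% against 8.45% of all genes. Of these, 4 were higher and 2 lower, and the median log2 fold change of the list was -0.01. The list was chosen with earlier results of these data known, and the difference between the 2 shares was not tested. Mdm2, the ligase of p53, fell to 40.3 ± 3.56 CPM in GRKO, against 56.3 ± 0.541 in control (log2 fold change -0.48 ± 0.07 SE, edgeR adjusted p = 0.00374). Mdm2 kept its call in every alternative tried, with E and G left out and with the GC trend removed among them (highest adjusted p = 0.0183). The N-degron ligase gene Ubr1 rose to 58.2 ± 4.57 CPM in GRKO, against 45.2 ± 3.08 in control (0.36, edgeR adjusted p = 0.018). The HECT ligase genes Wwp1 and Smurf2 rose by log2 fold changes of 0.30 and 0.29 (edgeR adjusted p = 0.0249 and 0.0361), and Rnf123, part of a ligase of the cell cycle inhibitor p27, fell by 0.24 on the log2 scale (edgeR adjusted p = 0.025). Of these 5 genes Mdm2 alone kept its call with the GC trend removed, and likewise without E and G. With the GC trend removed the log2 fold change was 0.24 for Ubr1, 0.07 for Wwp1, 0.25 for Smurf2 and -0.10 for Rnf123, and without E and G it was 0.41, 0.33, 0.28 and -0.24. The calls of Ubr1 (F, G or A), Wwp1 (F, G, H, A or D), Rnf123 (F, G, H, A, C or D) and Smurf2 (F, G, H, A or C) also ended without 1 library, and that of Rnf123 with no filter or with scaling by library size alone.

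Of 26 upstream regulators of these ligases, 1 rose and 1 fell (median log2 fold change -0.10), or 7.69% against 8.45% of all genes. Hdac4, a class IIa deacetylase that raises Fbxo32 and Trim63 through myogenin in denervated muscle, rose to 46.5 ± 1.54 CPM in GRKO, against 36.4 ± 2.30 in control (0.35, edgeR adjusted p = 0.0103), a call that ended without E and G (log2 fold change 0.38, adjusted p = 0.0681). Akt1, the kinase that keeps FoxO factors out of the nucleus, fell to 50.2 ± 2.04 CPM in GRKO, against 60.8 ± 4.79 in control (-0.28, edgeR adjusted p = 0.0341). Its call ended with the GC trend removed (-0.12), with scaling by library size alone, without E and G (-0.32), and without F, G, H, A or D. The FoxO genes, chosen after their values were seen, did not pass: Foxo1 was at 17.3 and 19.8 CPM, Foxo3 at 24.1 and 25.4 CPM and Foxo4 at 159 and 151 CPM in GRKO and control. Of 21 known substrates or partners of the members, 2 fell and none rose (median -0.08), or 9.52% against 8.45% of all genes. These were Akt1 again and Mylpf, the fast regulatory myosin light chain, which fell to 8230 ± 1026 CPM in GRKO, against 11813 ± 1744 in control (-0.52, edgeR adjusted p = 0.0262). The call of Mylpf ended with the GC trend removed (-0.44, adjusted p = 0.067), without E and G (-0.43), and without G, H, A or C, its log2 fold change with any 1 library left out being -0.61 to -0.44.

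**Figure D5:**
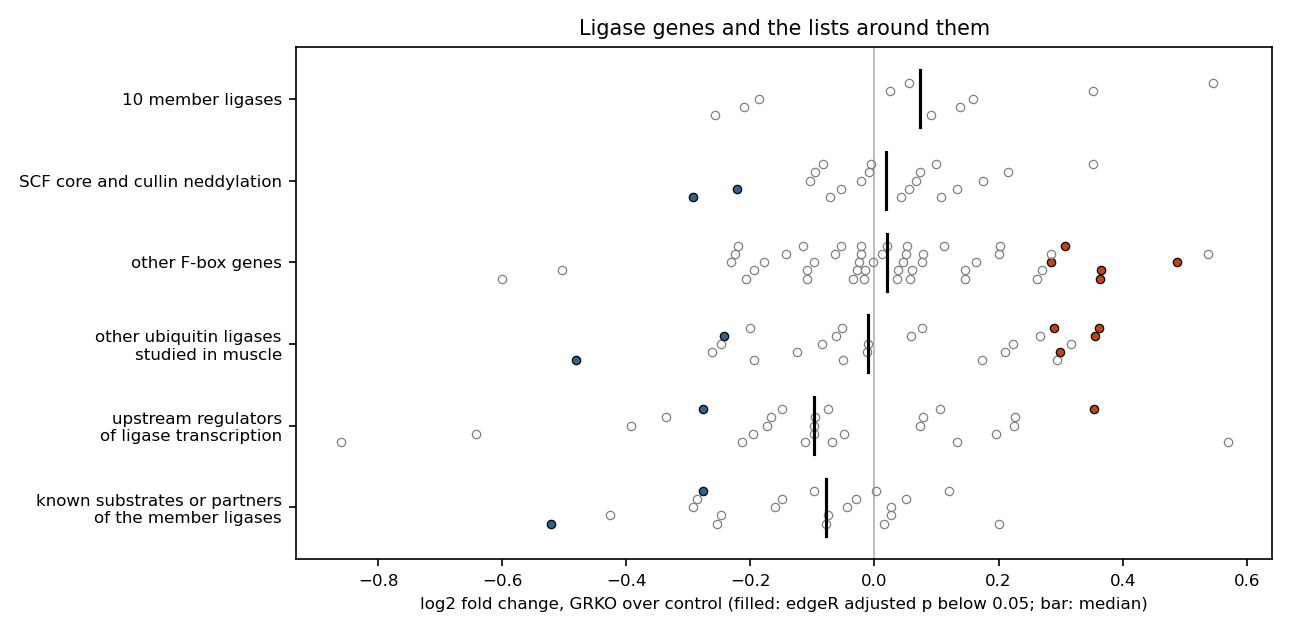
Log2 fold change (x axis, GRKO over control) of the 10 ligase genes and of the genes in 5 surrounding lists, 1 point per gene, filled red (higher) or blue (lower) where the edgeR adjusted p was under 0.05, with the median of each list as a bar. No member is filled, and the list of other ligases studied in muscle holds 6 filled points of 25.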

How the data were processed

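The deposited values are the authors' raw read counts, 1 row per gene, not normalised. Per the series' design text and the submitters' processing notes, reads were aligned to mm10 with TopHat2 (version 2) and counted with HOMER. Neither the annotation release nor the use of strand is given in the sources used here, and 4 members (Trim54, Fbxo32, Fbxo31, Cblb) overlap a gene on the other strand, with at most 20 reads over all libraries. Columns carry numbers found in no label and were assigned to groups by name. No label says that each library came from its own mouse, and p-values then cover only the spread among the libraries, which may be technical.

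Genes kept by filterByExpr (edgeR 4.0.16; minimum count 10, minimum total 15) numbered 14712. They were scaled by TMM and compared by the robust quasi-likelihood test with no covariate (R 4.3.3, limma 3.58.1), adjusted over all genes tested by Benjamini-Hochberg at 0.05. The SE is the absolute log2 fold change over the square root of F, and 95% intervals use the fit's degrees of freedom. Log2 CPM used a prior count of 2. Gene coordinates, exon lengths and GC content came from GENCODE M21 on GRCm38, the assembly of mm10. Genes were named by rule: all members, Nr3c1 and Fkbp5, called genes of each list (up to 8, or the 2 smallest p where none was called), and the 3 genes most like Fbxo32 and Trim63. Some list genes that the rule took are counted but not reported here by name. Members and lists were chosen with earlier results of these data known. Alternatives were other scalings, filters and tests (DESeq2 1.42.0), a GC trend correction (lowess span 0.3) and each library left out.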

Additional observations from a re-analysis of the deposited data

Results flagged for a closer look

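In 2 of 24 groups of 4 values looked at, the lowest library stood apart from the other 3 by Dixon's criterion, which chance meets in about 1 in 20 groups. Both belong to GRKO library H, with Fbxo32 at 418.8 CPM against 738 to 753 CPM in E, F and G, and Trim63 at 208.3 CPM against 303 to 318 CPM. Without H the log2 fold change was 0.71 for Fbxo32 and -0.06 for Trim63.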

How the results depend on the processing

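The 10 members kept the sign of their log2 fold change in all 18 alternatives, one of which, the fit without libraries E and G, was chosen after seeing the data. The number of members called, 0 with all libraries in edgeR, was 2 by DESeq2 (Fbxo32, log2 fold change 0.56, and Fbxo30, 0.36) and 0 to 1 with 1 library left out. With 1 library left out the log2 fold change ran from 0.42 to 0.71 for Fbxo32, from 0.25 to 0.46 for Fbxo30 and from -0.38 to -0.16 for Trim54. The causes were not tested. Over all genes, 1243 were called, against 2026 by DESeq2, 1871 by limma-voom, 683 with the GC trend removed, 226 without E and G, and 373 to 1794 with 1 library left out. Higher calls made up 69.8% of calls when libraries were scaled by their totals alone, against 47.8% with TMM. Of 16 called genes in the lists, 4 kept their call with the GC trend removed, 2 without E and G, and 3 whichever single library was left out. The number called ran, with 1 library left out, from 0 to 3 of the SCF genes, 0 to 5 of the other F-box genes and 2 to 8 of the other ligases. No paired analysis was possible because the columns carry no replicate number that the labels give. Each member had at least 387 reads per library, and the effect of depth was not tested.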
